A study of Mus musculus with 20 samples.

Results

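Polysome RNA and total RNA were compared in the livers of 5 mice that had received a locked nucleic acid antisense oligonucleotide (LNA) against the small nucleolar RNA SNORA73. The comparison used all the libraries of this group, namely 5 of polysome RNA and 5 of total RNA from mice 4, 6, 10, 11 and 12, which are 10 of the 20 libraries of the series. The animals were male C57BL/6J mice fed standard chow. They were injected intraperitoneally with 3 mg/kg LNA every other day for 3 injections from 8 weeks of age, and were killed 2 days after the last injection. The control mice 1, 2, 3, 8 and 9 received an LNA against GFP, a protein that mice do not make, on the same schedule. The method for liver polysomes gives an age of 10 weeks and an injection of the elongation inhibitor cycloheximide before killing, so both groups carried that drug as well as an LNA. In the sample labels the target appears as Snora37, but the series title and design text give SNORA73, the name used here. Each mouse gave both RNAs, and the mouse was therefore kept as a block in the test. Of 53028 genes in the deposited table, 13063 passed 0.5 CPM (read counts scaled to library size) in at least 4 of the 10 libraries and were tested.

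Polysomes are mRNAs that carry several translating ribosomes, and they are separated from free RNA, ribosomal subunits and single ribosomes on a sucrose gradient. The amount of an mRNA in this fraction relative to total RNA depends on how much of it is being translated and on how many ribosomes it carries, because a short coding sequence holds few ribosomes. SNORA73A and SNORA73B are box H/ACA small nucleolar RNAs that lie in introns of the host gene Snhg3 and take part in ribosomal RNA processing. Both RNA kinds went through poly(A) selection, so small nucleolar RNAs are not expected in the libraries. The extraction differed between the 2 RNA kinds: total RNA was purified on a column with DNase, and polysome RNA was precipitated, treated with heparinase and cleaned on another column. Polysome association and extraction therefore cannot be told apart in this comparison.

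The study describes 2 oligonucleotides against SNORA73, shown because they define the treatment. The study states that its further experiments in liver used the second, while its account of the sequenced livers names only SNORA73 LNA. Capitals mark the 10 locked bases among the 20 bases of each, written 5′ to 3′.
SNORA73 LNA 1: AAGTCgtaggaatatGCAGG
SNORA73 LNA 2: GACTCtgagaagtcgTAGGA
Their longest shared run is the 11 bases aagtcgtagga. The knockdown could not be checked in these libraries. Snora73a had 0 to 1 estimated counts per library in the 10 SNORA73 LNA libraries and 0 to 2 in the 10 GFP LNA libraries, and Snora73b had 0 to 2 and 0 to 4.

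The total RNA libraries of the SNORA73 LNA mice held 20005389 to 29887649 counts and the polysome libraries 14852951 to 24905687. Albumin mRNA (Alb) made up 2.00% to 4.03% of the counts in total RNA and 2.06% to 3.67% in polysome RNA, and all 8 hepatocyte markers listed were measured. Mouse 6 stood apart. Its polysome to total log2 ratios correlated with those of the other mice at 0.52 to 0.57 over the genes tested, whereas the highest such correlation of each of the other 4 mice was 0.72 to 0.78. The interquartile range of its log2 ratios was 0.58, against 0.73 to 1.03 in the other 4. Its total RNA library also deviated from the group mean more like the polysome library of mouse 12 (r = 0.34 across genes) than like its own (r = 0.16). The polysome library of mouse 6 likewise deviated more like the total RNA library of mouse 12 (r = 0.19) than like its own. All the other mice of both groups had the highest such correlation with their own number. Without mouse 6, 2252 genes were higher and 2651 lower in polysome RNA, against 2182 and 2263 with it. Without it 12 of 13 mitochondrial genome mRNAs were still lower, and 64 of 75 respiratory chain, 56 of 78 mitochondrial ribosomal and 18 of 82 cytosolic ribosomal protein genes were higher. Other lists moved more without it: the number lower went from 9 to 12 of the splicing factors, from 4 to 6 of the clock genes, from 4 to 6 of the sinusoidal endothelial markers and from 1 to 3 of the endoplasmic reticulum chaperones, and the number higher from 12 to 17 of the plasma proteins.

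A gene is called higher or lower here when the polysome to total log2 fold change was at least 0.5 in size and the Benjamini-Hochberg adjusted p of edgeR's quasi-likelihood test was under 0.05. By this rule 2182 genes (16.7%) were higher in polysome RNA and 2263 (17.3%) were lower, so that 34.0% of the genes tested differed in either direction. Changes of at least 1 on the log2 scale numbered 573 and 868. The median log2 fold change over all genes tested was 0.01, with quartiles of -0.43 and 0.40. All 5 mice shifted the same way for 2019 of the genes called higher (92.5%) and for 2026 of those called lower (89.5%). Over all genes tested, 48.6% had the same sign in all 5 mice.

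**Figure D1:**
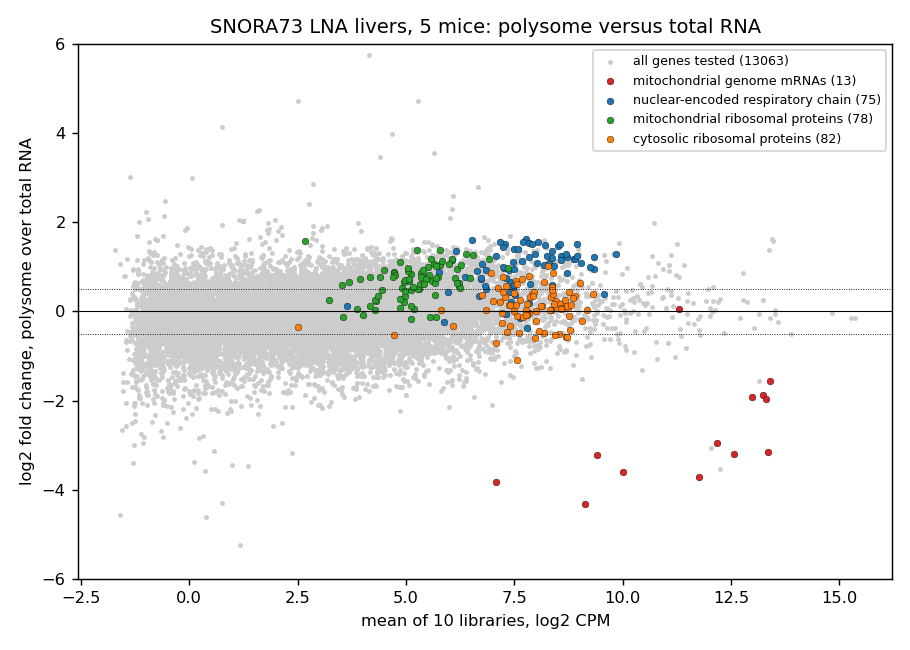
Log2 fold change of polysome over total RNA (vertical axis) against the mean of the 10 SNORA73 LNA libraries in log2 CPM (horizontal axis), 1 point per gene, with dotted lines at 0.5 and -0.5. Of the 13 mitochondrial genome mRNAs 12 lie far below 0, most nuclear-encoded respiratory chain and mitochondrial ribosomal protein mRNAs lie above 0.5, cytosolic ribosomal protein mRNAs lie around 0, and 5 genes fall outside the plotted range of 6.

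Among genes with a mean of at least 10 CPM and the same direction in all 5 mice, the largest decreases were those of RNAs from the mitochondrial genome. They are transcribed and translated inside mitochondria by the organelle's own ribosomes, and code for core subunits of respiratory complexes I, III, IV and V. In polysome RNA 12 of the 13 fell, none rose, and their median log2 fold change was -3.15. Together they made up 10.3% to 11.8% of counts in total RNA and 1.68% to 3.60% in polysome RNA. The mitochondrial rRNAs mt-Rnr1 and mt-Rnr2 were 1.14% to 2.29% of counts in total RNA and 0.0804% to 0.292% in polysome RNA. Neither of these pairs of ranges overlapped.

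mt-Atp6, which codes for a subunit of the proton channel of ATP synthase, was at 17571, 15809, 20387, 20073 and 20265 CPM in the total RNA of mice 4, 6, 10, 11 and 12. In the polysome RNA of the same mice it was at 2597, 3142, 2065, 1743 and 1428 CPM. Every polysome value was below every total value, and mouse 6 had both the lowest total and the highest polysome value. The log2 fold change was -3.15 ± 0.20 (error derived from edgeR's test statistic, n = 5 mice, adjusted p = 1.19e-05 by edgeR). The complex I subunit mt-Nd2 ranged from 4419 to 9411 CPM in total RNA and from 146 to 1013 CPM in polysome RNA, with a log2 fold change of -3.71 ± 0.38. The lowest value of the 13 was that of mt-Atp8, at -4.32 ± 0.48. The 4 mRNAs with the smallest loss were mt-Co3 (-1.97), mt-Cytb (-1.92), mt-Co2 (-1.87) and mt-Co1 (-1.55). The first and the last 2 of these code for the 3 core subunits of cytochrome c oxidase, and mt-Cytb for cytochrome b of complex III.

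The exception was mt-Nd6, another complex I subunit, which lies on the opposite strand from most mitochondrial genes and overlaps the end of mt-Nd5. It was at 2449, 2020, 2227, 3474 and 2060 CPM in total RNA and at 3041, 2443, 1934, 3684 and 1772 CPM in polysome RNA, in the order of mice above. It was higher in 3 mice and lower in 2, and its log2 fold change was 0.05 ± 0.11 (adjusted p = 0.733 by edgeR). Whether strand was used in the quantification is not given in the sources used here, so its reads cannot be told apart from antisense reads of its neighbours.

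The nuclear-encoded partners of these subunits went the other way. Nuclear genes for respiratory chain and ATP synthase subunits are translated in the cytosol and their products are imported into mitochondria. Of 75 tested, 62 were higher in polysome RNA, none was lower, and the median log2 fold change was 1.05, against 0.01 over all genes tested, of which 16.7% were higher. In sum they held 0.922% to 1.52% of counts in total RNA and 1.98% to 2.85% in polysome RNA. The median over the list was between 0.77 and 1.17 in each of the 5 mice. Ndufa1, a small membrane subunit of complex I, was at 109, 105, 98.4, 113 and 101 CPM in total RNA and at 315, 295, 271, 402 and 357 CPM in polysome RNA. The groups did not overlap, and the log2 fold change was 1.63 ± 0.10 (adjusted p = 1.19e-05 by edgeR). Ndufb2 (1.61), Ndufb7 (1.56), Ndufa3 (1.55), Ndufs6 (1.55) and Ndufa5 (1.53) followed, all subunits of complex I. Cox7c, a small subunit of cytochrome c oxidase, had a log2 fold change of 1.18 ± 0.10, with 209 to 348 CPM in total and 484 to 788 CPM in polysome RNA. Among the 13 that did not pass, Sdha, the flavoprotein of succinate dehydrogenase, had the lowest log2 fold change of the list at -0.36 (adjusted p = 0.00714), which misses the fold threshold, and Ndufs1, the largest subunit of complex I, was at -0.24 (adjusted p = 0.0784).

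Proteins of the mitochondrial ribosome are likewise made in the cytosol. Of 78 tested, 55 were higher in polysome RNA and none was lower, the median being 0.73, with mouse medians from 0.51 to 0.85. Mrps12 rose from 27.1 to 41.7 CPM in total RNA to 68.1 to 92.8 CPM in polysome RNA (log2 fold change 1.14 ± 0.11), and Mrpl12 had a log2 fold change of 0.97 ± 0.10. Mrpl23 had the highest value, 1.58 ± 0.37, at a low level and in 4 of 5 mice, and Mrps2 the lowest, -0.16 (adjusted p = 0.174). Subunits of the proteasome, the protease of the cytosol and nucleus, behaved similarly in count: 25 of 41 were higher and none was lower (median 0.56). Their mouse medians were spread more widely, from 0.18 in mouse 6 to 0.82 in mouse 11. Psmc1, an ATPase of the regulatory particle of the proteasome, had the highest log2 fold change of these subunits at 1.26 ± 0.12. Psmd5, a chaperone of proteasome assembly, had the lowest at -0.27 (adjusted p = 0.0675).

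**Figure D2:**
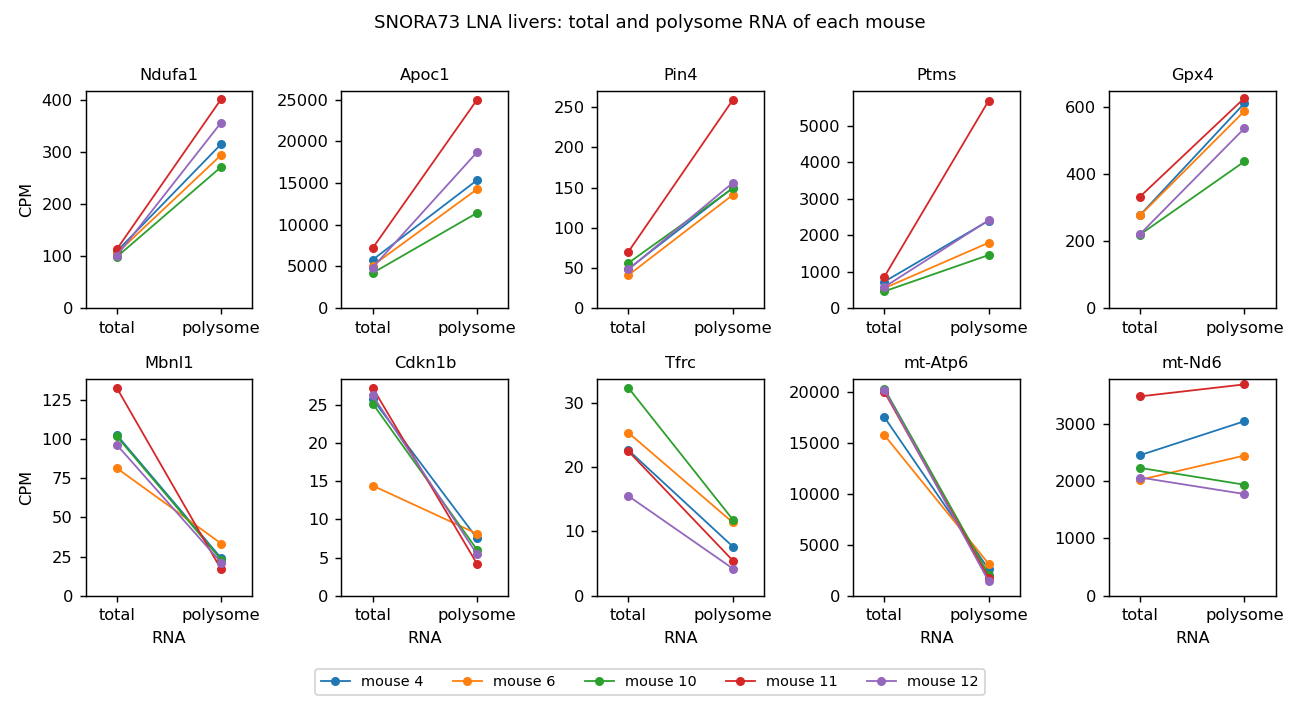
CPM of 10 genes in total and polysome RNA of the SNORA73 LNA mice, with 1 line per mouse and each vertical axis starting at 0. All 5 lines rise for Ndufa1, Apoc1, Pin4, Ptms and Gpx4, all fall for Mbnl1, Cdkn1b, Tfrc and mt-Atp6, and 3 rise and 2 fall for mt-Nd6.

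The 10 largest increases among genes with a mean of at least 10 CPM and the same direction in all 5 mice were Ptms, Rbm8a, Pin4, Hamp2, Ndufa1, Apoc1, Gps2, Pdap1, Ndufb2 and H2afj. Ptms codes for parathymosin, a small acidic nuclear protein (ENSMUSG00000030122, GRCm38 chr6:124913675-124917946). It was at 722, 544, 456, 855 and 575 CPM in the total RNA of mice 4, 6, 10, 11 and 12 and at 2399, 1793, 1454, 5696 and 2410 CPM in polysome RNA. All polysome values lay above all total values, and mouse 11 was the highest in both. The log2 fold change was 1.98 ± 0.15, which is 3.95-fold. Rbm8a codes for Y14, a subunit of the exon junction complex that translating ribosomes remove from new mRNAs, and rose from 65.4 to 95.9 CPM to 209 to 407 CPM (log2 fold change 1.70 ± 0.12). Pin4, a peptidyl-prolyl isomerase known for a part in ribosome biogenesis, rose from 41.0 to 70.1 CPM to 141 to 259 CPM (1.68 ± 0.10). The values of Hamp2 (1.64 ± 0.11) ranged widely between mice, from 2.77 to 20.3 CPM in total RNA, so that the groups overlapped although every mouse rose. Hamp2 is a related copy of the hepcidin gene Hamp, and estimated counts may be split between them. Gps2, a subunit of the NCoR corepressor complex, Pdap1, a small phosphoprotein, and the histone variant H2afj had log2 fold changes of 1.62, 1.61 and 1.60.

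The 10 largest decreases by the same rule all came from the mitochondrial genome. Among the other genes, and chosen after the values were seen, large decreases were those of Mbnl1, Aldh6a1, Nadk2, Slc10a2, Cdkn1b, Ahr, Tmed7, Ppip5k2 and Mospd2. Mbnl1, an RNA-binding regulator of splicing (ENSMUSG00000027763, GRCm38 chr3:60472559-60629750), was at 103, 81.5, 101.9, 133 and 96.5 CPM in total RNA. In polysome RNA it was at 24.0, 33.3, 23.0, 16.8 and 21.2 CPM, all below the total values, and the log2 fold change was -2.14 ± 0.20. Aldh6a1 and Nadk2 code for mitochondrial enzymes, a dehydrogenase of valine breakdown and the NAD kinase of the organelle, and unlike the respiratory chain subunits they were lower in polysome RNA. Aldh6a1 went from 168 to 245 CPM to 31.6 to 78.8 CPM (-2.11 ± 0.21) and Nadk2 from 126 to 173 CPM to 27.9 to 62.9 CPM (-1.92 ± 0.20). Cdkn1b, the cell cycle inhibitor p27, was at 14.4 to 27.3 CPM in total RNA and 4.19 to 8.13 CPM in polysome RNA (-1.91 ± 0.22). In mouse 6 its log2 ratio was -0.79, against -1.71 to -2.57 in the other 4 mice. Slc10a2, the apical bile acid transporter, was at -1.91 ± 0.16 and Ahr, the receptor for dioxin-like ligands, at -1.86 ± 0.16. In all 9 of these genes the decrease was smallest in mouse 6, whose log2 ratios ran from -0.30 for Ppip5k2 to -1.29 for Ahr.

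Genes of the cytosolic translation machinery did not move as a block. Ribosomal protein mRNAs and those of several elongation factors start with a C followed by a run of pyrimidines, the terminal oligopyrimidine (TOP) motif, through which mTOR controls their translation. All 82 ribosomal protein genes listed were tested: 14 were higher, 7 lower and 61 not called, and the median log2 fold change was 0.13. The counts are close to or below the 16.7% and 17.3% over all genes. The median over the list was negative in mouse 6 (-0.18), and the highest mouse median was 0.36. Rpl38, a small protein of the large subunit, had the highest log2 fold change, 1.02 ± 0.13, at 148 to 262 CPM in total RNA and 286 to 630 CPM in polysome RNA. Fau (0.85), in which a ribosomal protein is fused to a ubiquitin-like protein, and Rpl36 (0.79) were higher as well. Rplp0, a protein of the ribosomal stalk, had the lowest value, -1.09 ± 0.13, at 216 to 317 CPM in total RNA and 101 to 159 CPM in polysome RNA. Rps6, the substrate of S6 kinase, was at 305 to 433 CPM in total RNA and 330 to 468 CPM in polysome RNA, and did not differ by the test (0.08 ± 0.11, adjusted p = 0.611). Ribosomal protein genes have many near-identical pseudogenes, which may take a share of their estimated counts.

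Starts that open with such a run are shown for 4 ribosomal protein genes with the first 25 bases of the RefSeq transcript start on GRCm38, and capitals mark the run.
Rps6, chr4:86857343-86857367, minus strand: CTCTTTTTCgtgacgcctcccaggc
Rps18, chr17:33955641-33955665, minus strand: CTCTCTTCCacaggaggcctacacg
Rpl38, chr11:114668580-114668604, plus strand: CTTTCCCCgttctcttcggttctca
Fau, chr19:6057947-6057971, plus strand: CTTCCTCTTTCTTgactccatcttc
A run of C and then at least 4 of C or T, on the transcribed strand and at the first annotated base, opened at least 1 start in 15 of 61 ribosomal protein genes with a start in the RefSeq table (24.6%) and in 813 of 27025 genes in all (3.01%). Annotated starts can lie some bases from the start in use, so a gene without a match here may still have the motif. The median log2 fold change was 0.14 for the 15 with a match and 0.11 for the other 46.

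The list of elongation factors and other TOP mRNAs had 1 of 14 higher (7.14%) and 3 lower (21.4%, median -0.13). Starts with the run were not counted for this list. Over all genes tested 16.7% were higher and 17.3% lower. Eef1a1, the factor that brings aminoacyl-tRNA to the ribosome, had a log2 fold change of -0.53 ± 0.09, just past the threshold. Without mouse 11 it was -0.50 and no longer called. Tpt1 (-0.86 ± 0.11) and Pabpc1, the poly(A)-binding protein (-0.74), were the other members lower, and Eef1d (0.81) was the member higher. Eef2 was at -0.13 (adjusted p = 0.273). Of 33 initiation factors 11 were higher and 2 lower (median 0.37). Eif2b4 (1.17) and Eif5b (1.16) were the highest, and the 2 lower were Eif4g2 (-0.94 ± 0.16), which starts translation without the cap-binding protein, and the helicase Eif4a2 (-0.79 ± 0.12). Of 20 members and regulators of the mTOR complexes 3 were higher and 2 lower (median 0.18): Rictor, a core protein of mTORC2, was at -1.13 ± 0.24 and Mtor itself at -0.46 ± 0.11 (adjusted p = 0.00757), which misses the fold threshold. Without mouse 11 Mtor was at -0.53 (adjusted p = 0.00594) and was called lower.

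Hepatocyte mRNAs for secreted plasma proteins, which are translated on the endoplasmic reticulum, took 16.1% to 19.0% of counts in total RNA and 19.1% to 23.6% in polysome RNA. Of 83 tested 12 were higher (14.5%) and 7 lower (8.43%), both shares below the 16.7% and 17.3% over all genes (median 0.21). The median over the list ran from -0.13 in mouse 6 to 0.48 in mouse 11. The small apolipoproteins stood highest: Apoc1 (1.62), Apoc4 (1.53), Apoc3 (1.52), Apoa2 (1.37) and Apoc2 (1.33), all carried on plasma lipoproteins. Apoc1 (ENSMUSG00000040564, GRCm38 chr7:19689480-19692659) was at 5777, 5085, 4198, 7182 and 4850 CPM in total RNA and at 15338, 14256, 11403, 24982 and 18696 CPM in polysome RNA, with no overlap. Apob, the very large protein of the same particles (ENSMUSG00000020609, GRCm38 chr12:7977629-8016839), was at 2178, 2206, 2741, 2407 and 2421 CPM in total RNA and at 1169, 1301, 1333, 974 and 959 CPM in polysome RNA. It fell in every mouse, by edgeR at -1.07 ± 0.11 on the log2 scale (adjusted p = 5.74e-05). The carrier protein Ttr was at 0.86 ± 0.11, and Alb did not differ by the test (-0.03 ± 0.09, adjusted p = 0.816), with mouse 11 highest and mouse 6 lowest in log2 ratio at 0.17 and -0.20. Of 19 chaperones of the endoplasmic reticulum 2 were higher, Hsp90b1 (0.80) and Calr (0.76), and 1 was lower, Dnajb9 (-1.55).

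Several groups with known translational control were examined. Iron-responsive elements are hairpins in untranslated regions to which iron regulatory proteins bind, blocking translation when they sit near the start and stabilising the mRNA when they sit behind the coding sequence. None of the 10 mRNAs of this list was higher and 5 were lower (50.0%, against 17.3% over all genes, median -0.62). The mouse medians, with 0.5 CPM added to both values, were smaller in size, from -0.54 to -0.37. Tfrc, the transferrin receptor, was at 22.6, 25.4, 32.3, 22.5 and 15.5 CPM in total RNA and at 7.65, 11.4, 11.8, 5.47 and 4.22 CPM in polysome RNA, all below the total values (log2 fold change -1.60 ± 0.14). The ferritin subunits Fth1 and Ftl1 were at -0.92 ± 0.10 and -0.69 ± 0.12, the iron exporter Slc40a1 at -0.95 and the importer Slc11a2 at -0.54. For Fth1 the lowest total value was 1291 CPM, in mouse 11, and the highest polysome value 1199.95 CPM, in mouse 12, so the groups did not overlap.

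Upstream open reading frames hold back translation of the stress genes Atf4 and Atf5 until eIF2 is phosphorylated. Of 18 genes of the integrated stress response 4 were higher (22.2%, against 16.7% of all genes) and none was lower (median 0.15), and without mouse 6 there was 1 lower (median 0.069). Those higher were Cebpb (0.82 ± 0.10), Atf5 (0.73 ± 0.09), Trib3 (0.71) and Eprs (0.70). Atf5 rose in all 5 mice, from 205 to 367 CPM in total RNA to 323 to 618 CPM in polysome RNA, with overlapping ranges. Atf4 was at 70.9 to 87.5 CPM in total RNA and 68.9 to 95.6 CPM in polysome RNA (-0.03 ± 0.09, adjusted p = 0.825).

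Selenoproteins contain selenocysteine, which is inserted at a UGA codon. Of 20 tested 8 were higher and 4 lower (median 0.29). The share higher was above the 16.7% over all genes, and the share lower was close to the 17.3% over all genes. Gpx4, the glutathione peroxidase that protects membranes from lipid peroxides, was at 278, 277, 220, 333 and 221 CPM in total RNA and at 612, 589, 438, 628 and 537 CPM in polysome RNA. All polysome values were above all total values, and the log2 fold change was 1.08 ± 0.09. Gpx3 (0.91) and Gpx1 (0.76 ± 0.10) rose as well. Selenop, the plasma carrier of selenium with many selenocysteines, was lower at -0.83 ± 0.18, but its log2 ratio was only -0.02 in mouse 6, against -0.65 to -1.43 in the other 4. Selenot (-1.14 ± 0.18) was the lowest.

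Polyamine synthesis is controlled by ornithine decarboxylase (Odc1), its antizyme Oaz1, which needs a ribosomal frameshift, and the antizyme inhibitor Azin1. Of 12 genes 4 were higher (33.3%) and 1 lower (8.33%), against 16.7% and 17.3% over all genes (median 0.22). Odc1 had log2 ratios of 0.33 to 0.42 in the 5 mice, and its log2 fold change of 0.38 ± 0.09 (adjusted p = 0.00498) is below the fold threshold. Srm, spermidine synthase, was at 0.78 and Oaz1 at 0.59, both higher, and Azin1 at -0.74 ± 0.13, lower. The highest value, 1.79 for Amd2, belongs to a close copy of Amd1 (0.22, adjusted p = 0.118) with which it may share reads.

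Metabolic and regulatory mRNAs of the liver are given beside the 16.7% higher and 17.3% lower over all genes. Of 27 genes of cholesterol and fatty acid synthesis 9 were lower (33.3%) and 1 higher (median -0.30). Hmgcs1 (-1.27 ± 0.20) and Idi1 (-1.15) of the sterol pathway and Scd1, the stearoyl-CoA desaturase (-1.03 ± 0.09), were among those lower, and Pmvk (0.85) was the one higher. Scd1 varied strongly between mice in both RNAs, with SDs of 1846 around 3184 CPM in total RNA and 969 around 1574 CPM in polysome RNA, yet was lower in all 5. Without the block on mouse its adjusted p was 0.0898 by edgeR. Of 59 cytochrome P450 genes 13 were lower (22.0%) and 1 higher (median -0.12). Cyp7a1, the rate-limiting enzyme of bile acid synthesis, was at 11.5, 30.8, 31.9, 26.8 and 48.5 CPM in total RNA and at 5.28, 18.7, 12.6, 11.8 and 19.2 CPM in polysome RNA. The ranges overlapped, but each mouse was lower, with a log2 fold change of -1.14 ± 0.12. Of 18 clock genes 4 were lower (22.2%) and 1 higher (median -0.43), with Nr1d2 (-1.13 ± 0.20), a nuclear receptor that represses Arntl, the lowest, and Dbp (0.57 ± 0.12) the highest. Of 20 immediate early genes 8 were lower (40.0%) and 2 higher (median -0.42), from Fos (-0.90 ± 0.23) to Jund (0.72 ± 0.11). SR proteins and related splicing factors split evenly, 9 of 31 higher and 9 lower (median -0.02). Srsf1 (-1.16), Srsf2 (-0.78) and Srsf7 (-0.61) were lower, while Acin1 (1.38), Srsf11 (1.11), Rbm25 (1.004) and Luc7l3 (0.91) were higher. Of 9 histone genes 3 were higher and 2 lower (median 0.30). They are poorly captured by poly(A) selection, and Hist2h3c1 was at 3.40 to 7.22 CPM in total RNA and at 0 in 4 of the 5 polysome libraries.

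Long noncoding RNAs kept in the nucleus are not translated. Of 6 tested 3 were lower (50.0%, against 17.3% over all genes) and none was higher (median -0.66). Malat1 was at 767, 381, 641, 980 and 517 CPM in total RNA and at 406, 205, 242, 1313 and 260 CPM in polysome RNA. It was lower in 4 mice and higher in mouse 11, and its log2 fold change was -0.77 ± 0.21 (adjusted p = 0.013 by edgeR). Without the block on mouse it was -0.44 (adjusted p = 0.509). Neat1 was lower in every mouse, at -0.68 ± 0.10, and Kcnq1ot1 at -0.64 ± 0.17. These RNAs were thus still measured in every polysome library, and the part of nuclear RNA in the other results was not tested. Of 15 snoRNA host genes 4 were lower (26.7%) and 1 higher (6.67%), against 17.3% and 16.7% over all genes (median -0.49). Gas5, a host gene with a TOP start whose transcript is known to load ribosomes, was at 67.4 to 87.5 CPM in total RNA and 36.1 to 52.6 CPM in polysome RNA (-0.88 ± 0.10). Snhg3, the host of SNORA73 (ENSMUSG00000085241, GRCm38 chr4:132351933-132353686), was at 3.10, 4.23, 7.03, 4.63 and 4.30 CPM in total RNA and at 3.30, 3.40, 5.67, 1.89 and 3.40 CPM in polysome RNA. It was lower in 4 of 5 mice and did not pass the test (-0.42 ± 0.20, adjusted p = 0.104). Its neighbour Rcc1 was at 0.05 ± 0.17 (adjusted p = 0.818).

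The calls went with genomic span. Protein-coding genes with a RefSeq entry, 11625 in all, were divided into 10 classes of about equal size by the distance from first to last annotated base. In the shortest class, up to 4592 bases, 39.7% were higher and 7.14% lower (median log2 fold change 0.40). In class 9, from 68177 to 116509 bases, 7.24% were higher and 28.5% lower (median -0.22), and in the longest 8.77% and 22.2% (median -0.18). Across genes Spearman's rho between span and log2 fold change was -0.31, and -0.35 among the 5904 genes with a mean of at least 10 CPM. Genomic span includes introns and is not the length of the coding sequence. Ndufa1 and Apoc1, named above, belong to the shortest class and Mbnl1 to the longest. What part span has in the results was not tested.

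**Figure D3:**
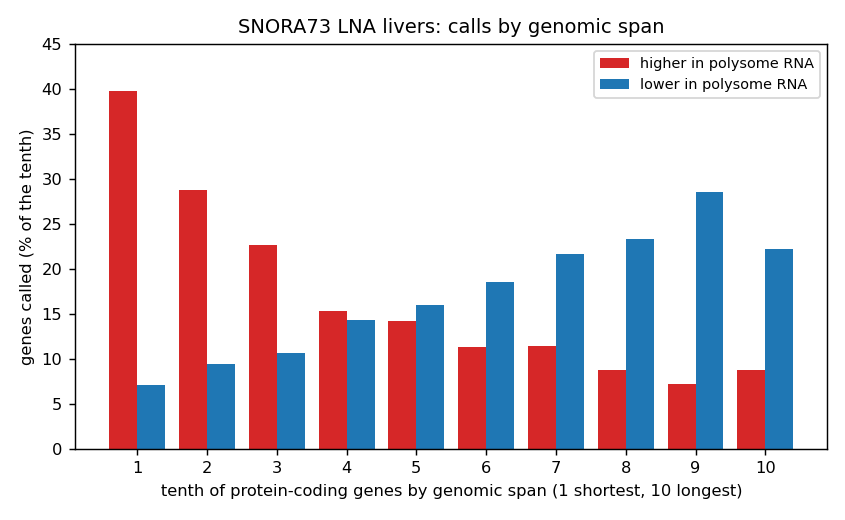
Share of protein-coding genes called higher (red) or lower (blue) in polysome RNA of the SNORA73 LNA mice, in percent of each of 10 classes of genes by genomic span from shortest (1) to longest (10). The share higher falls from 39.7% in the shortest class to 7.24% in class 9, and the share lower goes from 7.14% to 28.5%.

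The livers of GFP LNA mice were put through the same test as the nearest comparison, with no library in common. There, 2482 of 13283 genes were higher (18.7%) and 2838 lower (21.4%), 40.1% in all. The genes higher in both groups were 1722, which is 78.9% of the SNORA73 list and 69.4% of the GFP list. Those lower in both were 1939, which is 85.7% and 68.3%. A single gene, Rsc1a1, was called in opposite directions, at a mean of 1.97 CPM in the SNORA73 LNA libraries, and its difference between groups had an adjusted p of 0.242. Over the 12886 genes tested in both, the log2 fold changes correlated at Pearson's r = 0.88 and Spearman's rho = 0.89, as a description across genes that share libraries within each group.

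The difference itself was tested as an interaction of RNA kind and LNA over all 20 libraries. Of 13795 genes 1 had a higher polysome to total ratio in SNORA73 LNA livers (0.00725%) and 0 had a lower one (0.0%) at an adjusted p under 0.05 by edgeR, while 692 (5.02%) and 416 (3.02%), together 8.03%, had an unadjusted p under 0.05. DESeq2 with the same block called 54 higher and 4 lower. The gene was Anp32b, an acidic leucine-rich nuclear phosphoprotein that binds histones (ENSMUSG00000028333, GRCm38 chr4:46450926-46472657). In SNORA73 LNA mice it was at 135, 107, 141, 178 and 105 CPM in total RNA and at 276, 238, 322, 641 and 315 CPM in polysome RNA, a log2 fold change of 1.36 ± 0.13. In GFP LNA mice 1, 2, 3, 8 and 9 it was at 96.5, 99.2, 98.3, 118 and 133 CPM in total RNA and at 134, 100.1, 109, 93.1 and 137 CPM in polysome RNA, with a log2 fold change of 0.07. CPM in this paragraph were scaled within each LNA group, not jointly as in the interaction test. On these values all polysome libraries of the SNORA73 LNA mice lay above those of the GFP LNA mice. The difference in log2 fold change of Anp32b was 1.28 (adjusted p = 0.0349 by edgeR). Its call was lost when any of mice 2, 3, 8, 9, 10 or 11 was left out. The related Anp32a had log2 fold changes of 1.08 and 0.13 and a difference of 0.93 (adjusted p = 0.0794), which does not pass. Zeb2 (0.26 and -0.75) had the same adjusted p. The pseudogene Gm15387 was at 1.72 to 13.4 CPM in the total RNA of SNORA73 LNA mice, and had 0 counts in that of all 5 GFP LNA mice, with 46.4 to 192 and 51.6 to 74.3 CPM in polysome RNA. Spop, an adaptor of a ubiquitin ligase, had log2 fold changes of -0.52 and -1.25 (adjusted p of the difference 0.115).

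The medians of the gene lists are given side by side for the 2 LNA groups. The median log2 fold change of mitochondrial genome mRNAs was -3.15 in SNORA73 LNA and -3.30 in GFP LNA livers, that of nuclear-encoded respiratory chain subunits 1.05 and 1.07, that of mitochondrial ribosomal proteins 0.73 and 0.82, and that of proteasome subunits 0.56 and 0.58. Cytosolic ribosomal proteins had medians of 0.13 and -0.14, with 14 higher and 7 lower in SNORA73 LNA and 10 higher and 17 lower in GFP LNA livers. In the interaction test 19 of the 82 had a higher ratio in SNORA73 LNA livers at an unadjusted p under 0.05, 0 a lower one and 0 an adjusted p under 0.05, against 5.02% and 3.02% of all genes. Mouse medians of this list ran from -0.18 to 0.36 and from -0.37 to 0.20, and so overlapped. Elongation factors and other TOP mRNAs had medians of -0.13 and -0.32, with 6 of 14 at an unadjusted p under 0.05 in the same direction. The 9 histone genes had medians of 0.30 and 0.68, and the 18 clock genes -0.43 and -0.25. Mouse medians of the histone list ran from -0.25 to 0.26 and from 0.22 to 0.58, and so overlapped. In the interaction test 12 histone and 18 clock genes were tested, and none had an unadjusted p under 0.05. Erythroid markers had medians of 0.57 and 0.92, and 4 of 5 had a lower ratio in SNORA73 LNA livers at an unadjusted p under 0.05, none at an adjusted p under 0.05. Malat1 was at -0.77 and -2.14 (difference 1.36, adjusted p = 0.137) and Gas5 at -0.88 and -1.38 (difference 0.49, adjusted p = 0.467).

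**Figure D4:**
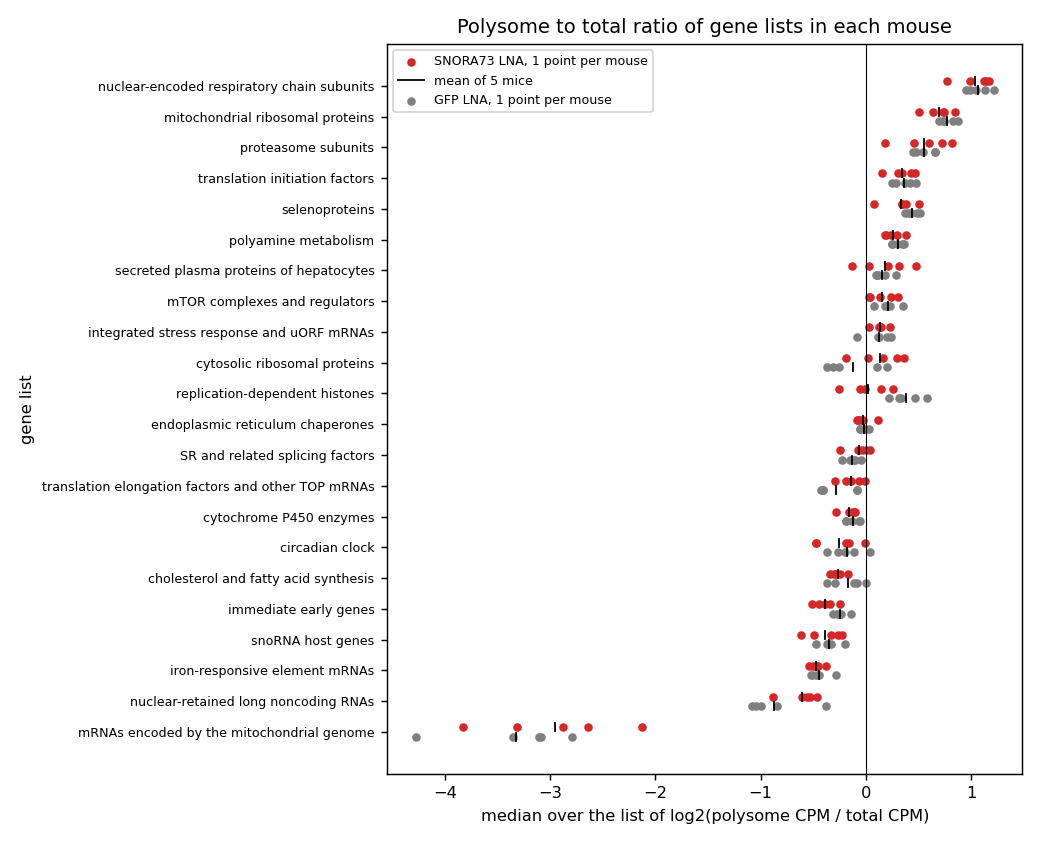
Median over each gene list of the log2 ratio of polysome to total CPM (horizontal axis), with 1 point per mouse for SNORA73 LNA (red) and GFP LNA (grey) and a black bar at the mean of 5 mice. Mitochondrial genome mRNAs lie lowest in every mouse, nuclear-encoded respiratory chain subunits lie between 0.77 and 1.21, and the points of the 2 groups overlap in every list.

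Markers of the other liver cell types were measured in both RNAs, and their counts stand beside 16.7% higher and 17.3% lower over all genes. In bulk tissue the level of a marker cannot tell fewer cells of a type from less RNA per cell, whereas its polysome to total ratio compares RNAs of the same liver. Of 10 Kupffer cell markers 3 were higher and 2 lower (median 0.17). For sinusoidal endothelial cells 4 of 10 were lower and none was higher (-0.39), and for stellate cells 5 of 10 were lower and 1 was higher (-0.54), with Lrat (-1.42 ± 0.22) the lowest. Of 5 erythroid markers tested 4 were higher (0.57), which were the 4 globin mRNAs, and both neutrophil markers tested, S100a8 (0.996) and S100a9 (0.96), were higher. Of 9 lymphocyte markers 3 were measured and none was called, and of 6 cholangiocyte markers 2 were measured and 1, Spp1 (-0.84), was lower. For hepatocytes 1 of 8 markers was higher (Ttr) and 1 lower, Cps1 of the urea cycle, at -1.32 ± 0.11. Their part in the other results was not tested.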

How the data were processed

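Total RNA and polysome RNA of 10 mouse livers were sequenced, giving 20 libraries. Per the labels and the study's methods, libraries were poly(A)-selected and read as 100 bp reversely stranded pairs. The authors trimmed reads with fastp (Phred 15), removed those aligned to rRNA (the submitters' notes name Bowtie2 and SAMtools), and quantified them with kallisto 0.46.2 on Ensembl 102 (GRCm38). The authors summed these to gene-level estimated counts with tximport, and 14.3% of the deposited values are not whole. They were rounded here. The strand option of kallisto is not given in the sources used here.

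The groups were taken from the labels. Genes with CPM over 0.5 in at least 4 libraries were fitted with edgeR 4.0.16 (R 4.3.3; TMM scaling, glmQLFit and glmQLFTest) with the mouse as a block, and p-values were adjusted over all genes tested. CPM uses library sizes scaled by TMM within each LNA group, and log2 ratios per mouse add 0.5 CPM to both values. The labels give both libraries of a mouse the same number. The deviations of the pair from their group means correlated at 0.16 to 0.71 across genes. The study left out 1 sample of each group after principal component analysis, which the labels do not name, so all 5 were used. Depths of 14852951 to 29887649 counts limit precision. Errors after ± are the size of the log2 fold change divided by the square root of edgeR's F statistic. That statistic uses a variance estimated in part across genes, so these errors are not the standard error of the 5 mouse log2 ratios.

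Genes named in full were the 10 largest changes each way at a mean of at least 10 CPM with 1 sign in all 5 mice, preset genes of the lists, list extremes and the 5 smallest p of the interaction. Further list members were named after their values were seen. The members and lists were chosen with earlier results of these data known. Symbols came from a table of names (51903 of 53028 genes), and positions, spans and starts from RefSeq on GRCm38.p6 (37868 matched). Alternatives used limma 3.58.1, DESeq2 1.42.0, other scaling and filters, no block, other fold thresholds and leaving out each mouse. On data simulated for the SNORA73 LNA comparison, 12851 genes were tested, of which 196 had a log2 change of 1. The test recovered 82.1% of the changed genes, and 10.6% of its calls (19 calls) were false, above the 5% that the FDR threshold sets. In the real comparison 34.0% of genes were called, a far larger share than was changed in the simulation. The false share of calls depends on it, so 10.6% from 1 simulation does not estimate the false share of the calls here. No table of proteins was used. Some genes that the rule names are not reported here.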

Additional observations from a re-analysis of the deposited data

Results flagged for a closer look

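Of 128 results tested for 1 mouse far from the other 4 of the SNORA73 LNA group (Dixon's ratio above 0.71), 7 were singled out, and chance alone gives about 1 in 20. Mouse 11 stood apart in 5 of them. Its log2 ratio of polysome to total RNA was 2.16 for Gps2 (1.33 to 1.54 in the others), 1.64 for Psmd1 (0.65 to 0.92), 0.42 for Malat1 (-1.40 to -0.89) and -0.14 for Spop (-0.68 to -0.54). The median over endoplasmic reticulum chaperones was 0.12 in mouse 11 and -0.086 to -0.029 in the others. Mouse 6 stood apart for Rcc1, at -0.54 against 0.06 to 0.30, and for Rpl41, at -1.06 against -0.57 to -0.37. Anp32b differed between the LNA groups by the interaction test, by 1.28 on the log2 scale.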

How the results depend on the processing

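The SNORA73 counts, 2182 higher and 2263 lower, stayed within 1.5 times under each alternative run of test, scaling, filter, block and left-out mouse: 1724 to 2339 higher and 1835 to 2730 lower. Without the replicate block they were 1912 and 1835, of which 1879 and 1826 were shared with the paired test. Leaving out each mouse gave 1860 to 2252 higher and 1880 to 2651 lower. A fold threshold of 1 on the log2 scale gave 573 higher and 868 lower, and 528 and 1159 in GFP LNA livers, where no fold threshold gave 4288 higher. Without the replicate block the calls of Scd1, Dbp, Neat1, Malat1, Kcnq1ot1 and Spop were lost. Genes just under the fold threshold were called lower under some settings: Mtor (-0.52), Jun (-0.51), Xbp1 (-0.53) and Cyp3a11 (-0.55) at CPM over 1 in every library, Clk1 (-0.50) without mouse 6 and Egr1 (-0.52) without mouse 10.

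In the interaction test the counts higher and lower were 0 and 1 with no replicate block, 54 and 4 with DESeq2, 5 and 1 with library totals, 105 and 32 with no filter, and 4 higher at CPM over 1 in every library. Leaving out each mouse gave 0 to 3 higher and 0 to 2 lower. The cause was not tested.

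Of the list medians, no filter gave -0.46 for the SNORA73 locus, -0.60 for immediate early genes, 0.010 for lymphocyte and 0.50 for neutrophil markers, with more genes tested. CPM over 1 in every library gave -0.25 for cytochrome P450 genes, with fewer. Leaving out mitochondrial genes gave 0.068 for histones. Leaving out each mouse, the median of integrated stress response genes was 0.069 to 0.20, of iron-responsive mRNAs -0.59 to -0.53, of stellate markers -0.67 to -0.47 and of splicing factors -0.19 to 0.043. Values near 0 that changed sign were those of Hspa5 (-0.023), Rcc1 (-0.011) and mt-Nd6 (-0.015) at CPM over 1 in every library, and, leaving out each mouse, Btg2 (-0.14 to 0.066), Rcc1 (-0.019 to 0.18), mt-Nd6 (-0.039 to 0.10), Hspa5 (-0.014 to 0.081), Sat1 (-0.22 to 0.023), Atf4 (-0.076 to 0.013) and Rps6 (-0.0042 to 0.16). None of these was called in the main test. The classes by protein length were not run, since no protein table was used, and genomic span took their place after the data were seen. The median of all genes moved by more than 0.1 only with no filter, to -0.11.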

Other observations

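Grouping genes by the letters of their symbol, which was done after the data were seen, gave 81 families with at least 15 genes tested. Lower in polysome RNA were 10 of 17 Ugt genes, the glucuronosyltransferases that conjugate drugs and bilirubin, with none higher and a median log2 fold change of -0.78 (-0.61 in GFP LNA livers). Ugt1 genes share exons, so estimated counts may be split between them. Of 313 Zfp genes, most of them zinc finger factors, 107 were lower and 27 higher (median -0.38), and of 22 Klhl genes, adaptors of ubiquitin ligases, 9 were lower and none higher (-0.35). On the other side were the RNA helicases of the Ddx family, with 15 of 34 higher and 5 lower (0.46), and the RNA polymerase subunits of the Polr family, with 13 of 28 higher and 2 lower (0.34). Over all genes tested 16.7% were higher and 17.3% lower.

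By RefSeq class, 63 of 448 lncRNAs were lower (14.1%) and 42 higher (9.4%), with a median of -0.13. Both shares were below the 17.3% lower and 16.7% higher over all genes tested. Nuclear rRNA entries had 32 of 36 higher (median 2.02), but the 29 entries of 5S rRNA among them had only 2 distinct mean values, since identical copies share reads.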
